A study of Homo sapiens with 20 samples.

Results

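The genes for granule proteases, granule-associated enzymes and lysozyme were examined for RUNX1 binding in THP-1 cells with lowered PU.1. All RUNX1 peaks within 50 kb of the RefSeq span of ELANE, PRTN3, AZU1, CFD, MPO, CTSG, LYZ, SRGN, RNASE2 or RNASE3 were taken, without regard to their counts. This gave 41 of the 26642 peaks of the series, at 6 loci, because AZU1, PRTN3, ELANE and CFD lie side by side on chromosome 19 and RNASE3 and RNASE2 are neighbours on chromosome 14. Coordinates are GRCh38 throughout.

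THP-1 is an established cell line from a human monocytic leukemia. Chromatin immunoprecipitation followed by sequencing (ChIP-seq) against RUNX1 was compared between cells with an inducible shRNA against PU.1 (knockdown, n = 6 libraries) and cells that carried a scramble shRNA instead (control, also n = 6), to see how RUNX1 occupancy depends on the level of PU.1. Both groups were grown in RPMI medium with serum and both received doxycycline, which switches on the shRNA cassette. The experiment was done in 2 batches, with 3 control and 2 knockdown libraries in batch 1 and 3 control and 4 knockdown libraries in batch 2. The replicates are separate immunoprecipitations from THP-1 cells, so the errors below measure the spread between such libraries and not between donors. Each group carries its own shRNA, so the knockdown cannot be told apart from other differences between the shRNA lines. Whether either shRNA line was a single clone is not given in the sources used here, and 8 IgG samples were not analysed here.

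Granulocytes and monocytes store defence proteins in cytoplasmic granules. ELANE (neutrophil elastase), PRTN3 and CTSG (cathepsin G) are serine proteases of the azurophil granule, and AZU1 (azurocidin) is a relative that has lost protease activity. CFD is the serine protease that activates the alternative complement pathway. MPO (myeloperoxidase) makes hypochlorous acid, LYZ (lysozyme) cuts the cell wall of bacteria, RNASE2 and RNASE3 are cytotoxic ribonucleases known from eosinophil granules, and SRGN (serglycin) is the proteoglycan core on which proteases are packed. Many of these genes are known in myeloid cells as shared targets of RUNX1, PU.1 and C/EBP factors, which bind neighbouring sites in promoters and enhancers. ChIP-seq records occupancy of DNA and not transcription, so no level of any mRNA or protein is given here.

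The promoter windows of CTSG, RNASE2 and RNASE3 are shown because each lay wholly inside a RUNX1 peak that was lower in knockdown cells. They hold 250 bases before and 50 after the start of the gene, as RefSeq gives them for GRCh38.p14, and are written 5′ to 3′ along the gene. Capitals mark the letters GAGGAA (a core of PU.1 and other ETS factors) and TTNNGNAA (a core of C/EBP factors) on either strand. CTSG, the minus strand of chr14:24576201-24576500, RNASE2, the plus strand of chr14:20955237-20955536, and RNASE3, the plus strand of chr14:20891135-20891434, read as follows.
CTSG: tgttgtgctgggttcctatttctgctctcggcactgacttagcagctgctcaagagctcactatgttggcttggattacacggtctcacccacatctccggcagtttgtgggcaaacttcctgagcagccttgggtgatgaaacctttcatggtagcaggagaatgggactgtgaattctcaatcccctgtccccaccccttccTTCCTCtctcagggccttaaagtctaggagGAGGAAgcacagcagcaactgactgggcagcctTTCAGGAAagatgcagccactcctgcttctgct
RNASE2: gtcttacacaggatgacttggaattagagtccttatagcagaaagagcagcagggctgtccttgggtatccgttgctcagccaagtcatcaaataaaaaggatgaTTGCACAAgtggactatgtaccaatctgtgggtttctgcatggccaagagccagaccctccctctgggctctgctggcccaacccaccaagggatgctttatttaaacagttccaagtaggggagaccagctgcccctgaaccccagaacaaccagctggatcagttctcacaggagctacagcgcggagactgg
RNASE3: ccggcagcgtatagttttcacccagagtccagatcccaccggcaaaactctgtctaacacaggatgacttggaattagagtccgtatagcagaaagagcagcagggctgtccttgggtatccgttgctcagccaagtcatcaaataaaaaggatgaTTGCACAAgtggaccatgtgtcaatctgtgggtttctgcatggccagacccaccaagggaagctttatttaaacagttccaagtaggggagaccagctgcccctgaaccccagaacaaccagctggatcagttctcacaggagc

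The CTSG window held the ETS letters on both strands, as TTCCTC at -46 and GAGGAA at -16 from the start, and the C/EBP letters as TTCAGGAA at 17. The RNASE2 and RNASE3 windows each held the C/EBP letters as TTGCACAA, at -145 and -94. These windows aligned over 283 columns, with 242 identical of 249 paired bases (97.2%) and gaps in the other columns. The windows are thus near-identical where their bases pair. Reads there could have been assigned to either gene, which was not tested. Of the other promoter windows in the RefSeq table, PRTN3 held GAGGAA at -88 and TTGGGCAA at -62, AZU1 held TTGGGCAA at -111, and CFD held neither. The RUNX core TGTGGT was in none of these 6 windows. ELANE, MPO, LYZ and SRGN had no window in the RefSeq table, so their promoters were not read. The PRTN3 and AZU1 windows overlapped no RUNX1 peak. Over 35116 promoter windows of the same length, TGTGGT was found in 13.1%, GAGGAA in 27.9% and TTNNGNAA in 36.8%. A match of letters is a description and not a shown binding site.

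Differential binding was tested with DESeq2 over all 26642 peaks with batch as a covariate. A peak was called gained or lost in knockdown cells at an adjusted p under 0.05 and a fold change over 1.1. Counts given below are normalised counts, that is reads in a peak divided by the size factor of the library. Libraries held 630247 to 1719840 reads in peaks, with fewer in control (630247 to 1199004) than in knockdown libraries (938745 to 1719840), and the median peak received 18 to 48 reads. At such depth the standard error of a log2 fold change had a median of 0.19 over the 41 peaks. The assay does not measure PU.1 itself, so the knockdown was not checked in these libraries.

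At the granule genes, more RUNX1 peaks were lost than gained in knockdown cells. Of the 41 peaks, 12 were called (29.3%), where 42.0% of all peaks were called. Of these, 3 were gained and 9 were lost. The gained peaks made up 7.32%, against 21.3% of all peaks, and the lost peaks 22.0%, against 20.7% of all peaks. The share of lost peaks was thus near that of the genome, and the share of gained peaks below it. No test of the list was made, as its members were chosen with results of these data known. The median log2 fold change was -0.15 over the 41 peaks and -0.025 over all peaks. Knockdown libraries did not overlap control libraries within batch 1 nor within batch 2 at 7 of the 41 peaks (17.1%, 2 above and 5 below), where 28.3% of all peaks were separated in this way.

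**Figure D1:**
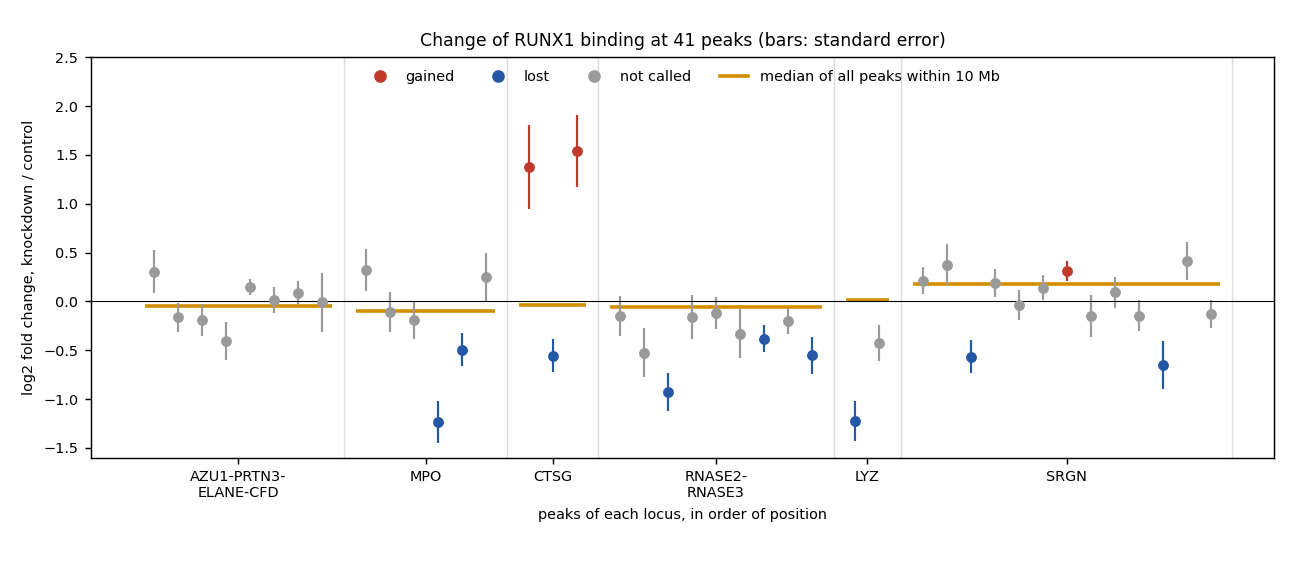
Log2 fold change of RUNX1 binding (knockdown over control, y axis) at the 41 peaks, ordered by position within each of the 6 loci (x axis), with bars for the standard error of the DESeq2 fit (6 control and 6 knockdown libraries). Red points are gained, blue points lost and grey points not called, and the ochre line is the median of all peaks within 10 Mb, which lay near 0 at all loci but SRGN (0.17). The 2 lowest points are the peaks at LYZ and beside MPO, both at -1.23, and all 9 points of the RNASE2-RNASE3 locus lie below 0.

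Calls per locus are given as a description, and whether the loci differ was not tested. Over all peaks, 21.3% were gained and 20.7% lost. The 8 peaks around AZU1, PRTN3, ELANE and CFD had no call, the 9 peaks around RNASE2 and RNASE3 had 3 lost and none gained, the 6 peaks around MPO had 2 lost, and 1 of the 2 peaks around LYZ was lost. CTSG had 3 peaks, of which the one at the gene was lost and the 2 in its flanks were gained. SRGN had 13 peaks, of which 2 were lost and 1 was gained. In the map of peaks by position, losses lay over LYZ, RNASE3, RNASE2, CTSG and SRGN and, for both MPO losses, at 602 and 3384 bp from that gene, and the remaining 2 lay 28924 bp from SRGN and over METTL17.

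**Figure D2:**
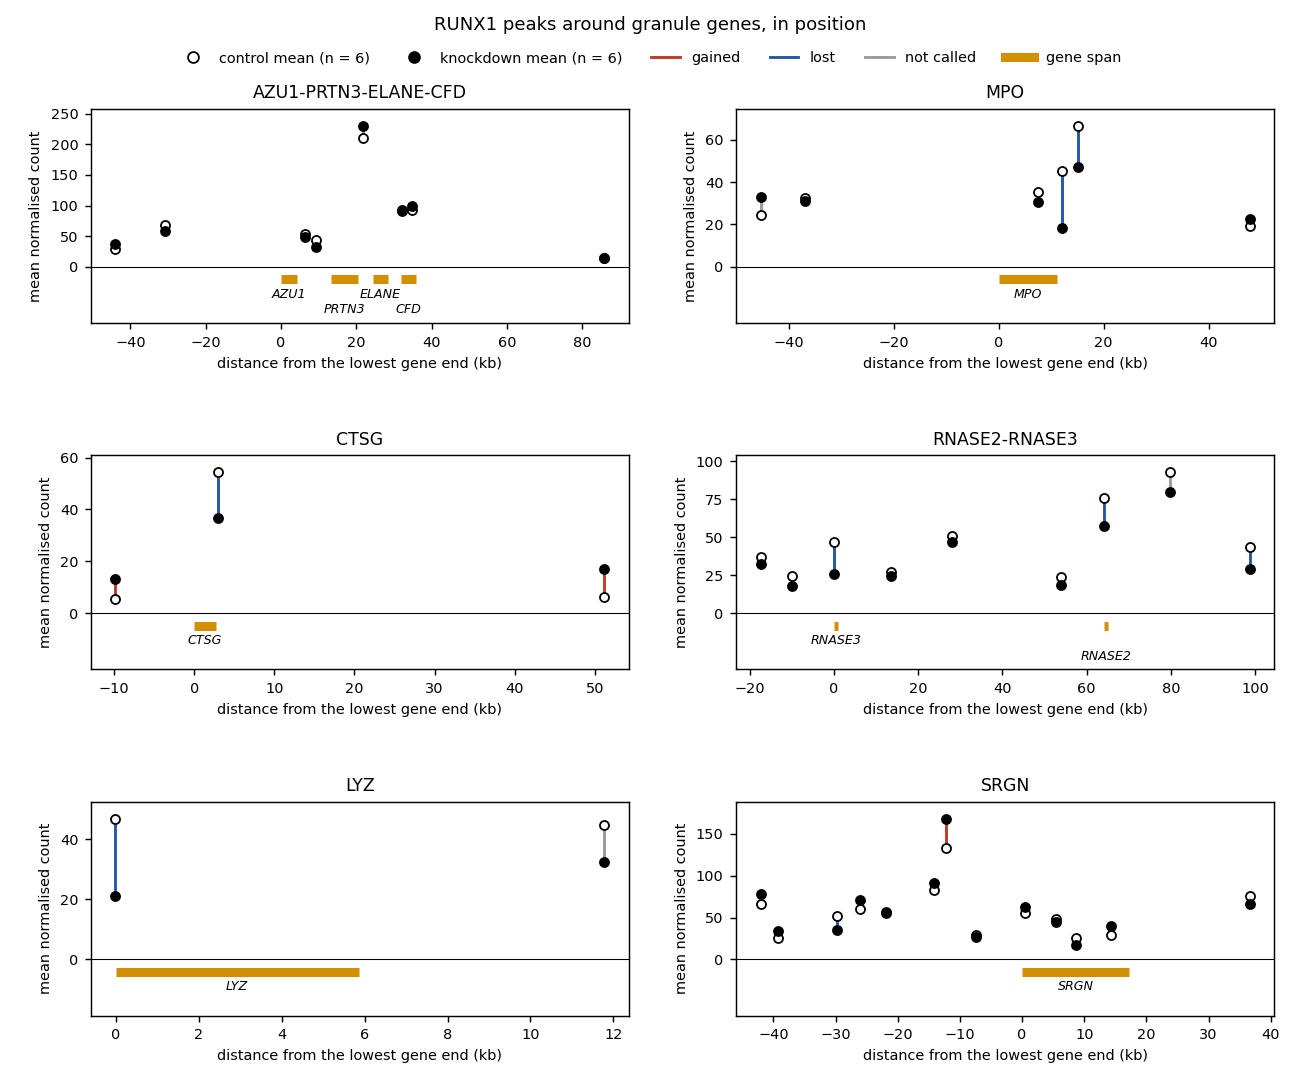
Mean normalised count of each of the 41 peaks (y axis) against the distance of the peak centre from the lowest coordinate of the locus' first gene in kb (x axis), in control (open circles) and knockdown libraries (filled circles), n = 6 each. Lines join both means and are red for gained, blue for lost and grey for uncalled peaks, and ochre bars are the spans of the genes. The chromosome 19 panel reaches the highest counts (210.8 in control and 229.8 in knockdown libraries) with no call, and the LYZ, MPO, RNASE3, RNASE2 and CTSG panels show control above knockdown at the gene.

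LYZ had one of the 2 largest losses among the 41 peaks. The peak chr12:69347987-69348755 (769 bp) overlapped the lower-coordinate end of LYZ, which spans chr12:69348381-69354234. Control libraries gave 31.2, 49.3, 51.9, 50.3, 41.0 and 56.9 normalised counts (replicates 1 to 6), and knockdown libraries gave 11.9, 15.8, 21.4, 24.4, 29.3 and 24.2. Every knockdown library was below every control library. The mean was 46.8 ± 9.19 in control and 21.2 ± 6.35 in knockdown libraries (SD, n = 6), which gave a change of -1.23 ± 0.21 on the log2 scale (SE, 95% interval -1.63 to -0.82, DESeq2 adjusted p = 4.43e-08). The loss was called in batch 1 (-1.65 ± 0.43, DESeq2 adjusted p = 0.00348) and in batch 2 (-0.98 ± 0.27, DESeq2 adjusted p = 0.00237). The batch 1 call was lost without control replicate 2 or 3 or either knockdown replicate of that batch (DESeq2 adjusted p from 0.0680 to 0.230), and the batch 2 call without control replicate 6 (DESeq2 adjusted p = 0.0582). The other peak of this locus, chr12:69359637-69360685 over the neighbouring gene YEATS4, had a log2 fold change of -0.42 and missed the threshold (DESeq2 adjusted p = 0.0521). It is named because the locus holds no further peak, after its value was seen.

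MPO had a loss of the same size just outside the gene. The peak chr17:58281537-58282502 (966 bp) lay 602 bp beyond the higher-coordinate end of MPO (chr17:58269855-58280935). Control libraries gave 39.0, 59.6, 48.4, 43.4, 37.5 and 44.2 normalised counts, and knockdown libraries gave 21.0, 21.1, 7.12, 21.8, 22.3 and 15.8. The groups did not overlap. The means were 45.3 ± 7.98 and 18.2 ± 5.90 (SD, n = 6), and the fitted log2 change was -1.23 ± 0.21 (95% interval -1.65 to -0.82, DESeq2 adjusted p = 8.94e-08). The change was called in both batches and was nearly equal in them, with -1.21 ± 0.38 in batch 1 (DESeq2 adjusted p = 0.0188) and -1.25 ± 0.32 in batch 2 (DESeq2 adjusted p = 0.00103). The batch 1 call was lost without control replicate 2 or 3 or either knockdown replicate of that batch (DESeq2 adjusted p from 0.117 to 0.375), while the batch 2 call held without each library in turn.

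Another MPO peak further out was lost less. At chr17:58284319-58285779, 3384 bp from the gene, control libraries ranged from 49.5 to 83.3 (median 67.2) and knockdown libraries from 39.1 to 59.4 (median 44.6), and the ranges overlapped. This was a log2 change of -0.49 ± 0.17 (DESeq2 adjusted p = 0.00924). The call rests on single libraries, since the adjusted p was 0.0501 without control replicate 4 and 0.0602 without control replicate 5 (DESeq2). The peak inside MPO, chr17:58276939-58277874, gave 25.3 to 43.4 in control and 24.2 to 38.2 in knockdown libraries. Its log2 fold change of -0.19 had a 95% interval from -0.58 to 0.20 and was not called (DESeq2 adjusted p = 0.461). The remaining 3 peaks of the locus, near MKS1, LPO and TSPOAP1, were not called either.

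**Figure D3:**
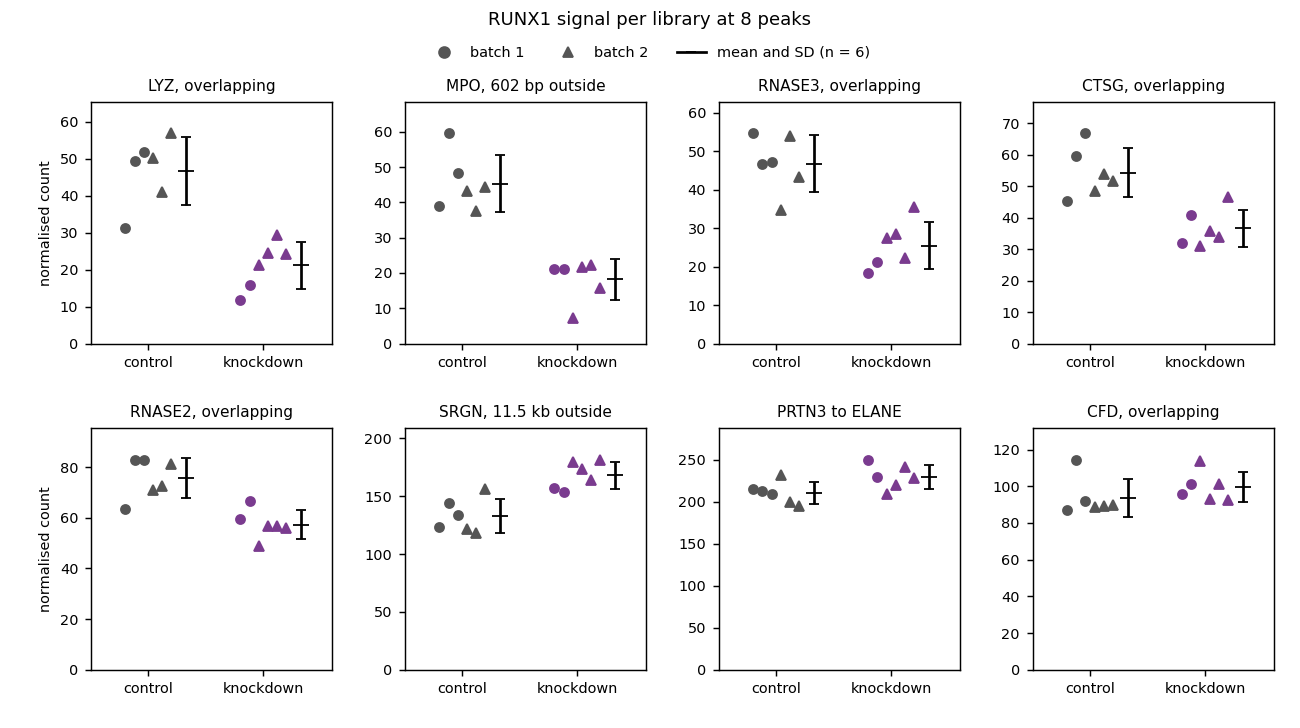
Normalised count of each library (y axis, from 0) at 8 peaks, in control (grey) and knockdown cells (purple), with circles for batch 1, triangles for batch 2 and bars for the mean and SD (n = 6 per group). At LYZ and beside MPO every knockdown point lies below every control point; at CTSG the lowest control library (45.5) lies just below the highest knockdown library (46.6), and at PRTN3 to ELANE and at CFD the groups overlap.

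The ribonuclease locus was lower in knockdown cells at all 9 peaks by the sign of the fold change, and 3 of these were called lost. The peak over the start of RNASE3, chr14:20890961-20891988, gave 54.6, 46.5, 47.2, 34.7, 53.9 and 43.2 in control libraries and 18.3, 21.1, 27.3, 28.4, 22.3 and 35.4 in knockdown libraries. The highest knockdown library exceeded the lowest control library by less than 1 count, both being of batch 2. The means were 46.7 ± 7.37 and 25.5 ± 6.20 (SD, n = 6), and the fitted log2 change was -0.93 ± 0.20 (95% interval -1.31 to -0.54, DESeq2 adjusted p = 1.58e-05). It was -1.30 ± 0.38 in batch 1 (DESeq2 adjusted p = 0.00978) and -0.66 ± 0.28 in batch 2 (DESeq2 adjusted p = 0.0597). The batch 1 call was lost without any 1 of its 5 libraries (DESeq2 adjusted p from 0.0505 to 0.305).

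The peak over the start of RNASE2, chr14:20954915-20956234, was more strongly bound and changed less. Control libraries gave 63.7, 82.8, 83.0, 71.1, 72.7 and 81.1, and knockdown libraries gave 59.4, 66.5, 48.7, 56.8, 56.7 and 55.9. The groups overlapped only through control replicate 1 and knockdown replicate 2, both of batch 1. Knockdown changed the log2 level by -0.38 ± 0.14 (95% interval -0.65 to -0.11, DESeq2 adjusted p = 0.0172). The call was lost in 3 of 20 alternatives, namely without control replicate 6 (DESeq2 adjusted p = 0.0764), with centring on the peaks within 10 Mb (centred Wald test, adjusted p = 0.0514) and with at least 10 counts required in every library (DESeq2 adjusted p = 0.0707). Whether the ribonuclease promoters differ in their change was not tested, and reads may be shared where the promoter windows are near-identical.

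The other loss of this locus lay over METTL17, a gene for a mitochondrial protein, at chr14:20989532-20990632 and 33096 bp from RNASE2. All control libraries (36.4 to 53.1) were above all knockdown libraries (23.0 to 35.6). Binding fell by 0.55 ± 0.19 on the log2 scale (DESeq2 adjusted p = 0.0114), and without knockdown replicate 2 the adjusted p was 0.117 (DESeq2). The 6 uncalled peaks of the locus had log2 fold changes from -0.53 to -0.12.

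CTSG, on the minus strand of chr14:24573518-24576250, had calls in both directions. The peak chr14:24575893-24577103 held the promoter window printed above. Control libraries gave 45.5, 59.6, 66.8, 48.6, 53.9 and 51.6, and knockdown libraries gave 32.0, 40.8, 30.9, 35.7, 33.8 and 46.6. Knockdown was below control within each batch. The means were 54.3 ± 7.78 and 36.6 ± 6.01 (SD, n = 6), and the fitted log2 change was -0.56 ± 0.17 (95% interval -0.89 to -0.23, DESeq2 adjusted p = 0.00372). Neither batch alone gave a call, with -0.64 ± 0.33 in batch 1 (DESeq2 adjusted p = 0.218) and -0.49 ± 0.25 in batch 2 (DESeq2 adjusted p = 0.129).

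Both flanking peaks of CTSG were weak and were gained. At chr14:24624409-24624967, 48159 bp from CTSG and 5987 bp from GZMB, the gene of the cytotoxic protease granzyme B, control libraries gave 6.50, 6.51, 4.61, 12.1, 2.35 and 4.21 normalised counts. Knockdown libraries gave 16.4, 14.5, 17.8, 21.8, 13.4 and 18.6, all above the control libraries. Knockdown changed the log2 level by 1.54 ± 0.37 (95% interval 0.82 to 2.26, DESeq2 adjusted p = 1.66e-04), and it was 1.41 ± 0.68 in batch 1 (not called) and 1.66 ± 0.54 in batch 2. The batch 2 value was 2.42 without control replicate 4, and its call was lost without control replicate 5 or 6 or knockdown replicate 4 (DESeq2 adjusted p from 0.0618 to 0.141). At chr14:24563456-24563934, 9584 bp from CTSG, control libraries gave 5.20, 2.79, 0, 13.9, 3.52 and 7.37, and knockdown libraries gave 20.1, 12.5, 10.7, 13.9, 10.8 and 11.2. The groups were apart in batch 1 and overlapped in batch 2. The log2 fold change of 1.37 ± 0.43 (DESeq2 adjusted p = 0.00507) split into 2.65 ± 0.87 in batch 1 (DESeq2 adjusted p = 0.0261) and 0.59 ± 0.53 in batch 2 (DESeq2 adjusted p = 0.450). The batch 1 value was 3.43 without control replicate 1, and the call was lost without control replicate 2 or 3 (DESeq2 adjusted p = 0.126 and 0.181). Without either knockdown replicate of that batch DESeq2 gave no adjusted p. The batch 2 value ran from 0.20 to 1.08 without single libraries. With means of 5.46 to 17.1 counts, these are the 2 peaks of the 41 with the least reads, and their fold changes have the widest errors.

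SRGN had the most peaks, and both directions occurred among them. The strongest, chr10:69074655-69076111, lay 11492 bp from SRGN (chr10:69087603-69104811). Control libraries gave 123.4, 144.2, 133.7, 121.4, 118.4 and 155.9, and knockdown libraries gave 157.1, 153.4, 179.3, 173.7, 163.8 and 181.7. Knockdown was above control within each batch, although control replicate 6 exceeded knockdown replicate 2. The log2 fold change was 0.31 ± 0.10 (95% interval 0.11 to 0.51, DESeq2 adjusted p = 0.00714). All peaks within 10 Mb had a median log2 fold change of 0.17 here. With the fold changes centred on that median the value was 0.14 and no longer called (centred Wald test, adjusted p = 0.290). The call was also lost without control replicate 5 (DESeq2 adjusted p = 0.0555).

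Losses at SRGN stood against this regional shift. At chr10:69057125-69058679, 28924 bp from the gene, control libraries gave 43.4 to 62.4 (median 53.3) and knockdown libraries 30.8 to 39.3 (median 34.1), with no overlap. Binding fell by 0.57 ± 0.17 on the log2 scale (DESeq2 adjusted p = 0.00301). Inside the gene, chr10:69095863-69096583 gave 21.1 to 36.4 in control and 10.5 to 24.9 in knockdown libraries, which overlapped, and the fitted log2 change was -0.65 ± 0.24 (DESeq2 adjusted p = 0.0218). This intragenic call was lost in 6 of 20 alternatives, namely without control replicate 4 and without knockdown replicates 2, 4 or 5 (DESeq2 adjusted p from 0.0524 to 0.121), with the replicate number as a block and with a count filter. The peak nearest the lower-coordinate end of SRGN, chr10:69087684-69088475, was not called (log2 fold change 0.09, 95% interval -0.22 to 0.40).

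The chromosome 19 cluster held the peak with the most reads of the 41 and no call. The peak chr19:847539-851533 was 3995 bp wide, overlapped the end of PRTN3 (chr19:840999-848175) and stopped 770 bp before ELANE (chr19:852303-856243), and it ranked 98 of 26642 peaks by mean normalised count. Per kb of peak it held 55.2 counts, above 85.6% of all peaks, while the gained SRGN peak held 103.3 counts per kb, the most of the 41. Control libraries gave 215.7, 213.1, 209.7, 232.4, 199.3 and 194.9, and knockdown libraries gave 250.2, 229.8, 209.0, 220.6, 240.9 and 228.3. The groups overlapped in batch 2. The log2 fold change was 0.14 ± 0.084 (95% interval -0.019 to 0.31, DESeq2 adjusted p = 0.157). It passed the threshold with a count filter (0.21, DESeq2 adjusted p = 0.0361) and with centring on the peaks within 10 Mb (0.19, centred Wald test, adjusted p = 0.0490).

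At CFD (chr19:859664-863641) neither of the overlapping peaks was called. The peak chr19:861596-863380 gave 87.1 to 114.5 in control (median 89.3) and 92.3 to 114.0 in knockdown libraries (median 98.6). Its log2 fold change was 0.09 ± 0.12 with an interval from -0.14 to 0.32, and that of the peak over the start of CFD, chr19:858914-861196, was 0.013 ± 0.13. The peak nearest AZU1, chr19:833716-834820, gave 43.4 to 59.8 and 34.2 to 58.1, which is a log2 change of -0.19 ± 0.16 (interval -0.52 to 0.13). Another peak of the cluster is named after its value was seen, chr19:836278-837771 between AZU1 and PRTN3. Its log2 change was -0.40 with an interval from -0.78 to -0.028, which leaves out 0, but the adjusted p missed the threshold (DESeq2 adjusted p = 0.0772). In batch 2 alone it was called lost (-0.64, DESeq2 adjusted p = 0.0399), and it was not run there without single libraries.

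Read together per locus, the normalised counts of all peaks of a locus were summed in each library as a description. The sums hold the peaks called above, so they give no separate support. No such sums were made for other loci. At LYZ, control libraries summed to 74.6 to 108.3 and knockdown libraries to 42.9 to 65.7, and at RNASE2-RNASE3 to 397.5 to 457.9 and 316.8 to 363.4. At MPO the sums were 200.1 to 248.6 in control and 162.6 to 198.3 in knockdown libraries, although 2 of its 6 peaks had a positive fold change. The groups did not overlap at these 3 loci. They overlapped on chromosome 19 (559.3 to 638.0 in control and 576.8 to 638.7 in knockdown libraries), at SRGN (685.1 to 766.8 and 744.6 to 837.7) and at CTSG (57.2 to 74.6 and 58.0 to 76.4), where the loss at the gene and the gains in the flanks balanced.

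The libraries of each batch are separate, so the change was read in each alone. Both batches compared the same shRNA groups, so agreement between them does not separate the knockdown from other differences between these groups. Of the 41 peaks, 34 had the same sign in both batches, and so had 21307 of all 26642 peaks, a similar share. DESeq2 called 4 of them in batch 1 (9.76%), where 12.0% of all peaks were called, and 6 in batch 2 (14.6%), where 25.8% of all peaks were called. The peaks at LYZ and beside MPO were called in both, with the dependence on single libraries given above. The lost peaks at CTSG, RNASE2, METTL17 and SRGN were called in neither batch alone. When a batch-by-genotype term was fitted by DESeq2, it was called at none of all 26642 peaks, and so at none of the 41. This is therefore no finding about the granule peaks. An unadjusted DESeq2 p under 0.05 for this term was found at 2 of the 41 peaks and at 669 of all 26642 peaks. The 2 were chr14:24563456-24563934 beside CTSG and chr19:783571-784129 near PTBP1.

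**Figure D4:**
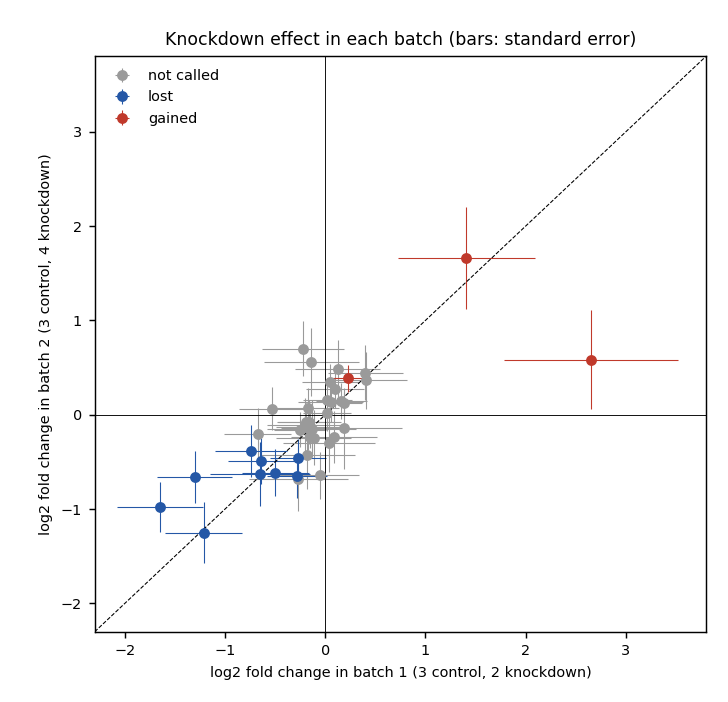
Log2 fold change of each of the 41 peaks in batch 1 (x axis, 3 control and 2 knockdown libraries) and in batch 2 (y axis, 3 control and 4 knockdown libraries), with bars for standard errors and a dashed line where both are equal. Red points are gained, blue points lost and grey points not called in both batches together. The 9 lost peaks lie below 0 in both batches, but those at CTSG, RNASE2, METTL17 and SRGN were called in neither batch alone. The gained peak beside CTSG lies far to the right of the line (2.65 in batch 1 and 0.59 in batch 2).

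Other granule genes were read out for comparison, as a list of 30 genes in 5 classes. A peak lay within 50 kb of 26 of them, and no peak near SLPI, PI3, OLFM4 or CLC. Another 2 peaks, near EPX, are among the 41 around the granule genes above, were not called and are left out here. Of the other 78 peaks, 15 were gained and 17 lost (41.0% called, median log2 fold change -0.037), close to the 42.0% of all peaks. With the fold changes centred on the peaks within 10 Mb, the split was 17 gained and 9 lost. The 32 peaks of specific and gelatinase granule genes had 7 gained and 8 lost. The 16 peaks of lysosomal cathepsin genes had 3 gained and 6 lost, the 17 peaks of azurophil partners and processing genes 3 gained and 1 lost, the 9 peaks of inhibitor genes 1 and 1, and the 4 peaks of eosinophil granule genes 1 and 1.

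Single genes of this list changed strongly. MMP9, the gelatinase of the gelatinase granule, had a lost peak at chr20:46004837-46005726, with 67.0 ± 8.33 in control and 25.5 ± 8.51 in knockdown libraries (SD, n = 6, log2 fold change -1.46 ± 0.18, DESeq2 adjusted p = 8.12e-14). LTF, the gene of the iron-binding lactoferrin of specific granules, had a gained peak at chr3:46489810-46491327, with 17.9 ± 6.61 and 54.0 ± 12.4 (1.54 ± 0.22, DESeq2 adjusted p = 5.87e-11). PRSS57, a granule serine protease encoded near the chromosome 19 cluster, had a gained peak 36992 bp from the gene at chr19:732444-733176 (1.56 ± 0.25, DESeq2 adjusted p = 4.19e-09) and a lost one at chr19:703185-704801 (-0.34 ± 0.14, DESeq2 adjusted p = 0.0480).

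Among cathepsins, CTSZ had a lost peak 351 bp from the gene (49.7 ± 6.57 in control and 18.1 ± 5.35 in knockdown libraries, log2 fold change -1.39 ± 0.21, DESeq2 adjusted p = 3.29e-10). CTSH had 5 peaks, of which 3 were lost and 1 gained. The gained one lay 17541 bp away (1.36 ± 0.26, DESeq2 adjusted p = 2.67e-06), and the lost one with the smallest adjusted p lay nearer, at 5254 bp (-1.31 ± 0.24, DESeq2 adjusted p = 4.66e-07), and is named after its value was seen. Of the protease inhibitors, CST7 (cystatin F) had a gained peak within the gene (0.93 ± 0.26, DESeq2 adjusted p = 0.00133) and CST3 (cystatin C) a lost peak 8417 bp away (-0.82 ± 0.19, DESeq2 adjusted p = 7.01e-05). PRG2, the gene of the eosinophil major basic protein, had both, a gained peak 41462 bp away (0.51 ± 0.14, DESeq2 adjusted p = 0.00103) and a lost one 34011 bp away (-0.72 ± 0.19, DESeq2 adjusted p = 6.66e-04).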

How the data were processed

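RUNX1 ChIP-seq libraries of THP-1 cells were analysed from the deposited table of read counts per peak. Per the study's methods and the submitters' processing notes, the authors aligned reads with Bowtie2, removed duplicates, called peaks with MACS2 for each condition and batch, kept those reproducible between batches, merged the conditions and counted reads with featureCounts. The deposited values are therefore raw counts without normalization, and the peaks were called on the libraries compared. The table also gives peak width, deposited as other information. The notes name a mouse and a human build. With gene spans of GRCh38.p14, 24.4% of peaks lay within 1 kb of a gene end, against 5.48% to 7.58% after shifting the peaks, so GRCh38 was used.

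DESeq2 1.42.0 (R 4.3.3; median-of-ratios size factors, batch and genotype) was fitted to all 26642 peaks, also per batch and with the product of batch and genotype, with Benjamini-Hochberg adjustment over all peaks. Alternatives were edgeR 4.0.16 (quasi-likelihood), other size factors, no batch term, a replicate block, count filters, centring on peaks within 10 Mb, other thresholds and windows, and leaving out each library. DESeq2 and edgeR were also run on counts simulated with a fixed dispersion and no batch effect, where 200 of 26642 peaks were changed 2-fold. DESeq2 recovered 151 of them with 2 false calls, and edgeR 168 with 4. Many more peaks were called in the real data, so these rates need not hold there, and an uncalled peak can still hold a change. Chi-square per degree of freedom between replicate libraries was 1.29 to 2.24, above sampling noise, so none was counted as a duplicate. Named peaks are every called one and, for each gene, the nearest one, and per class of the granule list the call with the smallest adjusted p in each direction. The genes, lists and rules were chosen with earlier results of these data known. Intervals are 95% Wald intervals. For the centred Wald test, the median of the peaks within 10 Mb was subtracted from the DESeq2 fold change. The standard error was left unchanged, so the error of that median is not counted, and p was again adjusted over all peaks. No genome sequence was used here, and exons and introns are not named.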

Additional observations from a re-analysis of the deposited data

Results flagged for a closer look

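Groups of 6 libraries were searched for a highest or lowest library that stands apart from the others of its group by Dixon's 95% limit. Of 34 groups (17 named peaks in control and knockdown cells), 2 were flagged, where chance flags about 1 in 20, or 1.7 of 34.

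At chr14:24563456-24563934, the gained flank peak of CTSG, knockdown replicate 1 (batch 1) gave 20.1 normalised counts and the other knockdown libraries 10.7 to 13.9. At chr19:861596-863380 over CFD, control replicate 2 (batch 1) gave 114.5 normalised counts and the other control libraries 87.1 to 92.2. The call at the CTSG flank held without knockdown replicate 1 (log2 fold change 1.11, its lowest without any single library). The adjusted p of this peak reached 0.0478 over the alternatives (DESeq2, edgeR or centred Wald test). The CFD peak was not called with or without control replicate 2 (DESeq2).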

How the results depend on the processing

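Of the 12 called peaks, 223 of 237 values under the alternative fits kept their direction and their call, 14 kept the direction and lost the call, and none reversed. The stricter thresholds and other windows were applied only to the numbers of calls below and are not in these values. The 5 named peaks without a call gave 97 of 100 values on the same side, 2 that passed the threshold and 1 that reversed. The peaks at LYZ (log2 fold change -1.34 to -1.12) and beside MPO (-1.32 to -1.13), and that at RNASE3 (-1.02 to -0.83), were called over both batches in every alternative fit that kept them (the count filter removed the MPO peak). With a knockdown to control ratio of 0.53, the RNASE3 peak would not pass a fold change over 2. Within a batch, 9 calls were made at named peaks, and 8 of them were lost without at least 1 library.

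The number of called granule peaks was 12 and became 15 with edgeR, 8 of 34 peaks with at least 10 counts in every library, 9 at an adjusted p under 0.01, 4 with a fold change over 2, 8 of 21 peaks within 10 kb, 18 of 60 within 100 kb, and 10 to 13 when single libraries were left out (lowest without control replicate 5). Over all 26642 peaks, 11185 calls became 8427 at an adjusted p under 0.01 and 4545 with a fold change over 2. They became 12536 with edgeR, 9741 to 10764 without single libraries, and 5877 of 18255 peaks with the count filter. The window does not bear on the calls over all peaks, so 42.0% is the share to set beside both windows. The 32 calls of the list of other granule genes became 15 of 52 peaks with the count filter and 20 at an adjusted p under 0.01. They became 12 with a fold change over 2, 15 within 10 kb and 24 to 31 without single libraries. The causes were not tested beyond the fewer peaks or stricter thresholds these settings bring.

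With a replicate block in place of batch, 11 granule peaks, 22 peaks of the list and 9495 of all peaks were called. The numbers do not pair the libraries: correlations of same-numbered deviations ran from -0.059 to 0.17 over 6 pairs, 2 of 6 control libraries correlated best with their own number, and replicate 3 is of different batches in the groups.

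Signs turned at 4 named peaks, none of them called. At chr10:69087684-69088475 the log2 fold change was -0.087 after centring, and without single libraries -0.13 to 0.25 in batch 1 and -0.015 to 0.27 in batch 2. In batch 1 it ran from -0.26 to 0.020 at chr17:58276939-58277874 and from -0.073 to 0.15 at chr19:861596-863380, where edgeR gave -0.0063. In batch 2 it ran from -0.017 to 0.17 at chr19:833716-834820.

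Depth limits the weak peaks most. The standard errors of 0.37 and 0.43 at the CTSG flanks exceed the change of most peaks, and fold changes are relative to the bulk of peaks, so a global shift of binding would not be seen.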

Other observations

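The 41 peaks were also split by position, a choice made after their values were seen and given as a description. Of the 13 peaks that overlapped a granule gene or lay within 1 kb of one, none was gained and 6 were lost (46.2%), at LYZ, MPO, RNASE3, RNASE2, CTSG and SRGN. The 28 peaks farther away had 3 gained and 3 lost (10.7% each). Among all peaks, those within 1 kb of a protein-coding gene were gained in 18.4% and lost in 20.1%, and those farther away were gained in 26.4% and lost in 21.8%. That split is by any protein-coding gene and not by granule genes, so it is not a like comparison. The 28 peaks include some over other genes, such as the lost peak over METTL17 and the uncalled one over YEATS4.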
